A study of Mus musculus with 18 samples.

Results

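The genes described here are the mouse Wnt ligands, the Frizzled (Fzd) receptors, the Dickkopf (Dkk) and secreted Frizzled-related (Sfrp) antagonists, the receptors Lrp5, Lrp6 and Lgr4, and the genes Axin2, Lef1 and Tcf7. They were chosen by a rule on gene symbols, and 43 of the 47643 genes in the deposited count table met the rule. The 43 comprised 19 Wnt genes, 13 receptors, 8 antagonists and 3 target or nuclear factor genes. Poly(A) RNA was sequenced from 18 libraries of the mouse prostate cancer line MPC3, in a study of the loss of Rnf185, which encodes a RING-type ubiquitin ligase of the endoplasmic reticulum. The control group held 6 MPC3 libraries titled plko, with the treatment given as control. The other groups held 6 libraries each of MPC3 with knockdown of Rnf185, by the short hairpin RNA (shRNA) shRNF185.1 or by shRNF185.3. A short hairpin RNA is processed in the cell into a small RNA that lowers the level of a matching transcript. Replicates 1 and 2 of every group were labelled batch 1, replicates 3 and 4 batch 2, and replicates 5 and 6 batch 3. All 18 libraries came from 1 cell line. Whether the hairpin cells were clones or pools, and whether the libraries of a group came from separate cultures, is not given in the sources used here, so the p-values measure the spread between these libraries, which may be technical. The counts tested were labelled as already adjusted for batch (ComBat-Seq). That spread is thus the one left after the adjustment, and the main test held no batch term and made no allowance for that step.

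Wnt proteins are secreted, lipid-modified ligands that bind Frizzled receptors. With the co-receptors LRP5 and LRP6, this binding stops the breakdown of beta-catenin, which then enters the nucleus and acts with TCF and LEF proteins on target genes such as Axin2. Other Wnt proteins, WNT5A among them, act mainly through Frizzled and other receptors without beta-catenin, on cell polarity and movement. DKK1 and DKK2 bind the LRP co-receptors and the SFRP proteins bind Wnt ligands, while LGR4 binds R-spondins and so keeps Frizzled receptors at the cell surface. In the prostate the pathway takes part in budding of the gland and in growth of its tumours.

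The 18 libraries held 22027395 to 43379662 counts each. Rnf185 itself was at 35.9 ± 1.96 CPM (counts scaled to a common library size, mean ± SD, n = 6) in control, against 5.81 ± 0.582 CPM for shRNF185.1 and 5.80 ± 0.546 CPM for shRNF185.3. Every hairpin library was below every control library, with a log2 fold change of -2.63 for either hairpin. The cells had prostate and epithelial transcripts, with Hoxb13 at 56.5 ± 10.3 and Krt8 at 1197 ± 98.2 CPM in control. Other defining markers were at or near 0: Pbsn had 0 counts in all 18 libraries and Epcam reached at most 0.289 CPM. The mesenchymal marker Vim stood at 3201 ± 348 CPM in control. The summed level of 6 epithelial markers had a median of 1868 CPM in control (range 1690 to 2532), 1330 CPM with shRNF185.1 (998.3 to 1747) and 1245 CPM with shRNF185.3 (1160.0 to 1366), and 3 of the 5 tested were called lower with shRNF185.1 and 4 of 5 with shRNF185.3. The part of this shift in the results below was not tested. The summed level of 7 mesenchymal markers had a median of 3566, 3697 and 4081 CPM in control, shRNF185.1 and shRNF185.3, most of it Vim. Against control, 3 of these markers were called for shRNF185.1 (Col1a1 and Pdgfrb higher, Dcn lower) and 3 for shRNF185.3 (Col1a1, Pdgfra and Pdgfrb, all higher). Col1a1 stood at 79.99, 196 and 365 CPM, Pdgfrb at 157, 201 and 235 CPM, and Dcn, called lower with shRNF185.1, at 24.9, 5.76 and 17.6 CPM. The neural list's Tubb3 was called higher with both hairpins, at 82.7, 124 and 107 CPM, while Sox10 and Rbfox3 were near 0. The leukocyte list's Cd68 was at 3.65, 2.26 and 2.62 CPM and was called lower with shRNF185.1. The part of these shifts in the results was not tested either. Ptprc, Adgre1 and Cd3e of leukocytes and Pecam1, Cdh5, Kdr and Tek of endothelium were at or near 0 in all groups.

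Most of the ligand family was silent or nearly so, while most receptors were expressed. A gene was counted as expressed in a group where its median was at least 0.5 CPM. By that rule 21 of the 43 genes were expressed in control and 23 in at least 1 group: 6 of 19 Wnt genes, 12 of 13 receptors, 3 of 8 antagonists and 2 of the 3 target or nuclear factor genes. The 2 genes expressed with a hairpin and not in control were Fzd3 and Wnt5b, whose control medians of 0.455 and 0.426 CPM lay just below the limit. The same 23 genes passed the filter on low counts and were tested. Without the shRNF185.3 libraries Fzd3 reached the filter level of 0.368 CPM in 5 libraries, and without the control libraries Fzd9 did so in 5, fewer than the 6 of a group. The other 21 reached it in at least 6 libraries whichever group was set aside. Wnt3, Wnt3a, Wnt8a, Wnt8b and Fzd10 had 0 counts in all 18 libraries, where the limit that a count of 0 allows (3 counts) corresponded to 0.0701 to 0.133 CPM. Such limits cover counting error only.

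Levels of different genes were compared per kilobase (kb) of exonic length. The co-receptor Lrp5 was the highest of the set in control at 27.8 ± 8.89 CPM per kb (SD, n = 6). Lgr4 at 18.5 ± 2.10 and Fzd7 at 14.3 ± 2.47 CPM per kb came next, and the libraries of Lrp5 and Lgr4 overlapped. Fzd1, Fzd2, Fzd6, Tcf7 and Lrp6 lay between 8.69 and 11.2 CPM per kb, and the libraries of neighbours in that order overlapped. The most abundant ligand, Wnt5a, stood at 2.33 ± 0.481 CPM per kb, close to Wnt7b at 2.03 ± 1.03, Wnt4 at 1.83 ± 0.329 and the antagonist Dkk2 at 2.09 ± 0.699, and these 4 genes overlapped. Every one of the 8 highest genes was thus a receptor or Tcf7, and in control each of these 8 exceeded the mean of Wnt5a in every library. Lef1, at 0.0866 ± 0.0228 CPM per kb, was far below its relative Tcf7 at 9.12 ± 0.689.

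**Figure D1:**
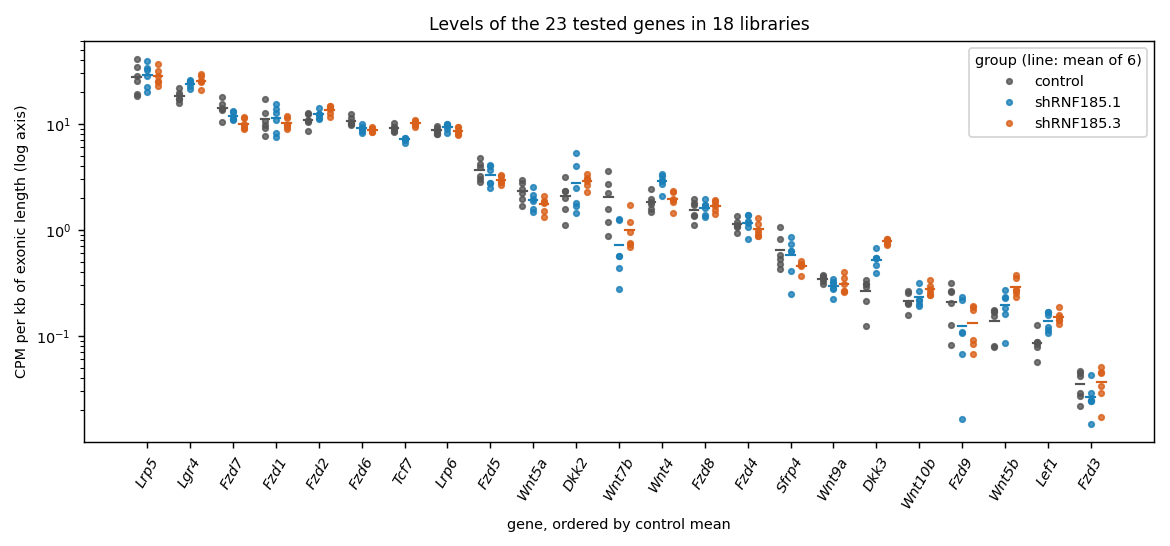
CPM per kb of exonic length (log axis) for the 23 tested genes, ordered by control mean, with 1 point per library and a line at the mean of 6. Receptors and Tcf7 fill the upper end from 8.69 to 27.8 CPM per kb, and the ligands start at Wnt5a with 2.33 CPM per kb.

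Each hairpin was compared with the same 6 control libraries, so these comparisons are not independent. Called means an adjusted p under 0.05 in edgeR's quasi-likelihood test with Benjamini-Hochberg adjustment over 14309 genes. With shRNF185.1, 8 of the 23 tested genes (34.8%) were called, beside 28.9% of all genes tested (14.6% higher, 14.3% lower). Dkk3, Lef1, Lgr4 and Wnt4 were higher, and Fzd6, Fzd7, Tcf7 and Wnt7b were lower. With shRNF185.3, 10 of 23 (43.5%) were called, beside 27.3% of all genes (14.2% higher, 13.1% lower). Dkk3, Fzd2, Lef1, Lgr4, Tcf7 and Wnt5b were higher, and Fzd6, Fzd7, Wnt5a and Wnt7b were lower. With at least 1 hairpin 11 of 23 (47.8%) were called, beside 39.6% of all genes, and 6 of 23 (26.1%) were called in the same direction with both hairpins, beside 16.1% of all genes. Those 6 were Dkk3, Lef1 and Lgr4, which rose, and Fzd6, Fzd7 and Wnt7b, which fell. With the labelled batch as a covariate, the Fzd7 call with shRNF185.1 (edgeR, adjusted p = 0.076) and the Wnt7b call with shRNF185.3 (0.0824) were lost. The share of 26.1% therefore depends on that choice. Tcf7 was called with both hairpins in opposite directions. The median log2 fold change of the 23 was 0.05 with shRNF185.1 and 0.03 with shRNF185.3, beside -0.02 over all genes in each comparison. The 6 libraries of a hairpin group and of control did not overlap for 2 of the 23 genes with shRNF185.1 (Dkk3 and Tcf7), beside 12.8% of all genes, and for 4 with shRNF185.3 (Dkk3, Fzd6, Lef1 and Wnt5b), beside 13.3%. Between the hairpins they did not overlap for 2 genes (Dkk3 and Tcf7), beside 8.25%. In these bulk libraries, fewer cells that express a gene and less of its RNA per cell cannot be told apart.

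**Figure D2:**
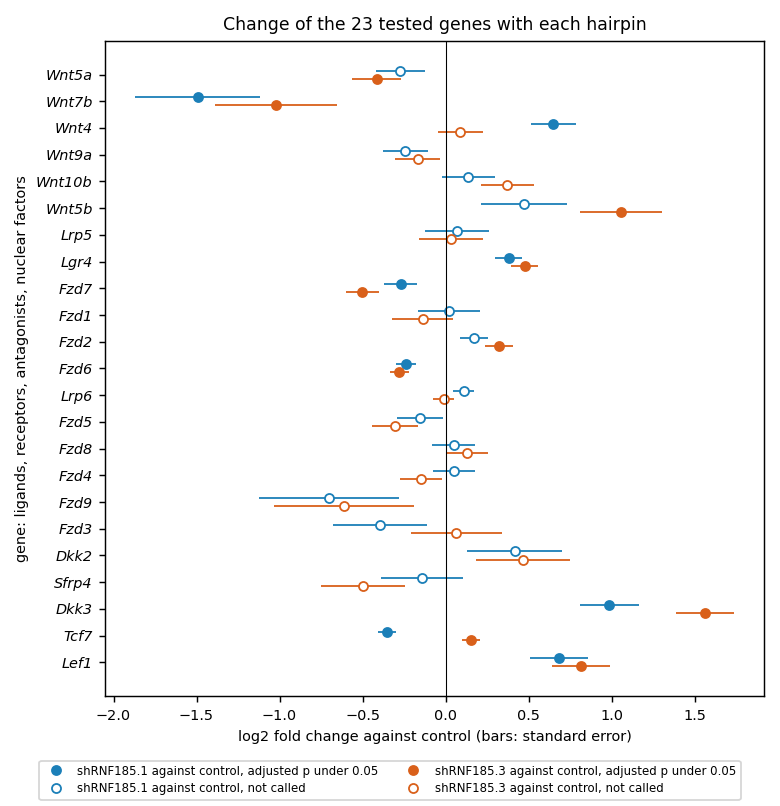
Log2 fold change of each of the 23 tested genes against control, with the standard error as a bar, for shRNF185.1 and shRNF185.3; filled points had an adjusted p under 0.05. Dkk3 lies furthest to the right at 0.99 and 1.56, Wnt7b furthest to the left at -1.49 and -1.02, and Tcf7 lies on opposite sides of 0.

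Lef1, Lgr4 and Fzd7 are the genes called in the same direction with both hairpins for which the RefSeq promoter table (build GRCm38.p6) held an entry, and their promoters are shown for that reason. Each window runs from 250 bases before to 50 bases after the RefSeq start, 5′ to 3′ on the gene's strand. Capitals mark CTTTGA, a form of the core of the site that TCF and LEF proteins bind. It was searched on both strands, so that a reverse-strand match reads TCAAAG. Other forms of the core were not searched and are not marked. The Lef1 entry nearest to the annotated gene start, the other of its 4 entries that held the letters, and the Lgr4 and Fzd7 entries read as follows.
Lef1 (chr3:131110073-131110372, plus strand): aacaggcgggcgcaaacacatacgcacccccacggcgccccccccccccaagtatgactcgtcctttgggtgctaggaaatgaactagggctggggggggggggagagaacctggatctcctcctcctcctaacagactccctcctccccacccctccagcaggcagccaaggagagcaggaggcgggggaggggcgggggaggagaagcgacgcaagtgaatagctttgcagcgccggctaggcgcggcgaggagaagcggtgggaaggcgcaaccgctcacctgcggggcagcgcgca
Lef1, other entry (chr3:131156044-131156343, plus strand): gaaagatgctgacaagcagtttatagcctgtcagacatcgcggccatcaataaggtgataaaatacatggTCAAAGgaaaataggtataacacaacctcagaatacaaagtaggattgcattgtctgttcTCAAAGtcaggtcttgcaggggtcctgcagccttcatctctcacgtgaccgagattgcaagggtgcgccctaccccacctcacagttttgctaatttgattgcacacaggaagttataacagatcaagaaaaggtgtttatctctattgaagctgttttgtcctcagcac
Lgr4 (chr2:109917397-109917696, plus strand): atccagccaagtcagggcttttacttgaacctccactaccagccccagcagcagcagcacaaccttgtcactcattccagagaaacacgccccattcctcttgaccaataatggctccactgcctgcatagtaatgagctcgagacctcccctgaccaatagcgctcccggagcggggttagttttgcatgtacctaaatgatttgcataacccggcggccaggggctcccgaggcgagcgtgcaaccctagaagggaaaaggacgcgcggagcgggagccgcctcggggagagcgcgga
Fzd7 (chr1:59481897-59482196, plus strand): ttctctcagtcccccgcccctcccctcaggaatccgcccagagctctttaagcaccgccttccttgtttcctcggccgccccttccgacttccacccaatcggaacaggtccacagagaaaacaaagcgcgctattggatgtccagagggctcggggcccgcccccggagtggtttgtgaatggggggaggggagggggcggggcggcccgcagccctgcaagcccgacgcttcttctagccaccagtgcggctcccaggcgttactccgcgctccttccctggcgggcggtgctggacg
The second Lef1 entry held the letters on the reverse strand at 180 and 120 bases before its start, and the other 3 windows did not hold them. The start of that second entry lay 45823 bases from the annotated gene start, against 148 bases for the first. Whether it is used in these cells was not tested. The absence says only that these letters are not in those windows. Over all 32851 tabulated promoters, 16.0% held the letters, and 5 of 36 entries did so among the 29 genes of the set that had an entry. The windows nearest to the annotated starts of Lef1, Lgr4 and Fzd7 were 67.3%, 58.3% and 66.7% G and C, with 21, 18 and 24 CpG dinucleotides, beside medians of 52.7% and 7 over all promoters.

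Among the ligands, Wnt7b fell with both hairpins, Wnt4 rose with shRNF185.1, and Wnt5a fell and Wnt5b rose with shRNF185.3. Wnt7b encodes a ligand that acts through beta-catenin in many epithelia. Its control libraries ranged from 4.27 to 17.8 CPM (median 9.33), against 1.36 to 6.18 CPM (median 2.79) with shRNF185.1 and 3.40 to 8.35 CPM (median 4.17) with shRNF185.3. The batch 2 controls were highest, at 17.8 and 13.3 CPM, the batch 3 controls were lowest, at 5.79 and 4.27 CPM, and the groups overlapped. Wnt7b was 2.82-fold lower with shRNF185.1 (log2 fold change -1.49, SE 0.38, adjusted p = 0.00543) and 2.03-fold lower with shRNF185.3 (-1.02, SE 0.37, adjusted p = 0.0467). Within batches 1, 2 and 3 the log2 difference was -1.20, -2.90 and -0.17 for shRNF185.1, against -1.02, -1.89 and 0.25 for shRNF185.3. Without batch 2 neither call held, with -0.75 (adjusted p = 0.15) and -0.44 (adjusted p = 0.415). The shRNF185.3 call was lost in 9 of 14 alternatives, among them the fit with the labelled batch as a covariate (adjusted p = 0.0824).

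Wnt4, a ligand needed for the development of kidney and female reproductive tract, ranged from 6.15 to 10.1 CPM (median 7.54) in control, from 8.76 to 14.2 CPM (median 12.3) with shRNF185.1 and from 6.07 to 9.67 CPM (median 8.08) for shRNF185.3. In 5 of 6 shRNF185.1 libraries it was above every control, while the shRNF185.3 libraries lay within or just below the control range. It was 1.57-fold higher with shRNF185.1 (log2 0.65, SE 0.13, adjusted p = 0.00117). With shRNF185.3 the value was 0.09 (SE 0.14, adjusted p = 0.671), and the hairpins differed from each other by -0.56 (SE 0.13, adjusted p = 0.0074, shRNF185.3 against shRNF185.1). Within batches 1, 2 and 3 the shRNF185.1 difference was 0.88, 0.21 and 0.89. Without batch 1 the call was lost (0.54, adjusted p = 0.0773), as was that between the hairpins (-0.50, adjusted p = 0.171), and without batch 3 the latter stood at -0.55 (adjusted p = 0.0522).

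Wnt5a and Wnt5b are close relatives known for signalling without beta-catenin. Wnt5a ranged from 13.1 to 23.04 CPM (median 18.2) in control, from 11.6 to 19.998 CPM (median 15.0) with shRNF185.1 and from 10.4 to 16.5 CPM (median 14.2) for shRNF185.3. The groups overlapped, and 2 of the 6 libraries of each hairpin group were below every control. Wnt5a was 1.33-fold lower with shRNF185.3 (log2 -0.41, SE 0.15, adjusted p = 0.0441), and with shRNF185.1 the value was -0.27 (SE 0.15, adjusted p = 0.18). The shRNF185.3 difference was -0.48, -0.35 and -0.45 in batches 1, 2 and 3, yet its adjusted p passed 0.05 in 8 of 14 alternative analyses, up to 0.173 without batch 1. Wnt5b was scarce, at 0.207 to 0.465 CPM (median 0.426) in control, 0.228 to 0.717 CPM (median 0.547) with shRNF185.1 and 0.623 to 1.00 CPM (median 0.715) with shRNF185.3. All 6 shRNF185.3 libraries, with 15 to 26 counts each, were above all 6 control libraries, with 5 to 19 counts. Wnt5b was 2.08-fold higher with shRNF185.3 (log2 1.06, SE 0.25, adjusted p = 0.00361), within batches 0.59, 1.34 and 1.39, and without batch 3 it stood at 0.92 (adjusted p = 0.0696). With shRNF185.1 the value was 0.47 (SE 0.26, adjusted p = 0.184), and the hairpins were not shown to differ (0.58, SE 0.24, adjusted p = 0.126).

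The other tested ligands, Wnt9a and Wnt10b, were not called in any comparison. Wnt9a had means of 0.975 to 1.15 CPM over the groups and log2 differences of -0.24 and -0.17 from control with shRNF185.1 and shRNF185.3. Wnt10b had means of 0.728 to 0.938 CPM and differences of 0.14 and 0.37.

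Of the 13 ligands below the filter, Wnt2b, Wnt16, Wnt7a, Wnt1 and Wnt11 reached 3 counts in at least 1 library, with highest counts of 14, 7, 7, 5 and 3. Wnt2, Wnt6, Wnt9b and Wnt10a reached at most 2 counts. Wnt7a, a ligand related to Wnt7b, had 3 to 7 counts in each of the 6 control libraries and 24 in all. With shRNF185.1 the sum was 1 count, and with shRNF185.3 it was 4 counts, with at most 2 in a library. The mean of 0.137 ± 0.0764 CPM in control thus stood beside 0.00634 ± 0.0155 and 0.0247 ± 0.0280 CPM, and no hairpin library reached the lowest control. With no filter beyond 1 count the difference was called lower with both hairpins (edgeR, adjusted p = 0.0022 with shRNF185.1 and 0.0288 with shRNF185.3). It rests on few reads.

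Among the receptors, Lgr4 rose and Fzd6 and Fzd7 fell with both hairpins, Fzd2 rose with shRNF185.3, and the others were not called. Lgr4, the R-spondin receptor, ranged from 93.6 to 128 CPM (median 106) in control, from 126 to 151 CPM (median 145) with shRNF185.1 and from 122 to 174 CPM (median 148) for shRNF185.3. In each hairpin group 5 of 6 libraries were above every control. Lgr4 was 1.302-fold higher with shRNF185.1 (log2 0.38, SE 0.08, adjusted p = 0.00164) and 1.39-fold higher with shRNF185.3 (0.48, SE 0.08, adjusted p = 0.000236). In batches 1, 2 and 3 the differences were 0.44, 0.47 and 0.23 for shRNF185.1, against 0.40, 0.66 and 0.36 for shRNF185.3. Both calls held in all 14 alternative analyses.

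Fzd7, a receptor linked with stem cells and several carcinomas, ranged from 47.7 to 82.0 CPM (median 63.4) in control, from 49.6 to 59.6 CPM (median 52.0) with shRNF185.1 and from 40.5 to 52.5 CPM (median 43.9) for shRNF185.3. The shRNF185.1 libraries lay inside the control range, while 4 of 6 shRNF185.3 libraries lay below it. Fzd7 was 1.42-fold lower with shRNF185.3 (log2 -0.50, SE 0.10, adjusted p = 0.00095). The smaller difference with shRNF185.1 (-0.27, SE 0.10, adjusted p = 0.0496) was lost in 10 of 14 alternatives and stood at -0.09 (adjusted p = 0.485) without batch 2. Within batches the differences were -0.18, -0.59 and 0.00 for shRNF185.1, against -0.53, -0.89 and -0.08 for shRNF185.3.

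Fzd6, a receptor best known for tissue polarity in skin and hair, ranged from 47.6 to 60.1 CPM (median 49.5) in control, from 39.9 to 48.2 CPM (median 43.7) with shRNF185.1 and from 40.6 to 44.7 CPM (median 42.2) for shRNF185.3. All 6 shRNF185.3 libraries and 5 of 6 shRNF185.1 libraries were below every control. The changes were small, 1.18-fold lower with shRNF185.1 (log2 -0.24, SE 0.06, adjusted p = 0.00504) and 1.21-fold lower with shRNF185.3 (-0.28, SE 0.06, adjusted p = 0.00179). They were negative in each batch, and without batch 3 the shRNF185.1 difference was -0.14 (adjusted p = 0.134). Fzd2 moved the other way, from 31.1 to 46.2 CPM (median 39.3) in control to 42.4 to 54.0 CPM (median 51.1) with shRNF185.3, where 5 of 6 libraries were above every control. It was 1.25-fold higher with that hairpin (log2 0.32, SE 0.08, adjusted p = 0.00817), and without batch 3 the value was 0.20 (adjusted p = 0.127). With shRNF185.1 Fzd2 ranged from 41.0 to 51.3 CPM (median 45.0), and its difference was 0.17 (SE 0.08, adjusted p = 0.148).

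Lrp5 and Lrp6, the co-receptors of the beta-catenin branch, were abundant in all groups and not called. Lrp5 had means of 271 ± 86.6, 284 ± 70.5 and 276 ± 49.9 CPM in control, shRNF185.1 and shRNF185.3, and Lrp6 had 119 ± 8.15, 128 ± 9.94 and 118 ± 9.19 CPM. The Lrp6 differences were 0.11 (SE 0.06, adjusted p = 0.203) and -0.01 (SE 0.06, adjusted p = 0.906). Fzd1, Fzd3, Fzd4, Fzd5, Fzd8 and Fzd9 were not called either. Their log2 differences ranged from -0.70 for Fzd9, the receptor gene with the largest SE (0.42), to 0.05 for Fzd4 with shRNF185.1, and from -0.61 for Fzd9 to 0.13 for Fzd8 with shRNF185.3. Fzd5 stood at -0.31 (adjusted p = 0.109) with shRNF185.3 and was called lower in 4 of 14 alternatives, all by edgeR. An offset for GC content and length gave -0.38 (adjusted p = 0.0254), and a term for the replicate number gave -0.28 (adjusted p = 0.0325). Both together gave -0.36 (adjusted p = 0.0032), and libraries summed by group and batch gave -0.27 (adjusted p = 0.0106).

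The antagonist Dkk3 had the largest rise of the 23 tested genes. Dkk3 encodes a secreted Dickkopf-related protein, described as reduced in many tumours, whose link to Wnt signalling is less settled than that of DKK1. It ranged from 0.418 to 1.13 CPM (median 1.00) in control, from 1.32 to 2.25 CPM (median 1.81) with shRNF185.1 and from 2.45 to 2.78 CPM (median 2.62) for shRNF185.3. The 3 groups did not overlap: every shRNF185.1 library was above every control, and every shRNF185.3 library above every shRNF185.1 library. Dkk3 was 1.98-fold higher with shRNF185.1 (log2 0.99, SE 0.18, adjusted p = 0.000365) and 2.96-fold higher with shRNF185.3 (1.56, SE 0.18, adjusted p = 2.50e-06). The rise was 1.39, 0.60 and 1.00 in batches 1, 2 and 3 for shRNF185.1, against 1.70, 1.32 and 1.72 for shRNF185.3. Both calls held in every alternative in which Dkk3 was tested. The hairpins differed by 0.58 (SE 0.17, adjusted p = 0.0244), and that call was lost in 4 of 13 alternatives: without batch 2 (0.51, adjusted p = 0.179), without batch 3 (0.50, adjusted p = 0.205), with batch as a covariate (0.58, adjusted p = 0.0507) and with no filter beyond 1 count (0.57, adjusted p = 0.0586). The gene was scarce even so, with 12 to 86 counts in a library.

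Dkk2 and Sfrp4 were tested and not called. Dkk2, which binds LRP6, had means of 7.73 ± 2.59, 10.3 ± 5.71 and 10.6 ± 1.39 CPM in control, shRNF185.1 and shRNF185.3, and differences of 0.42 (SE 0.29) and 0.47 (SE 0.28). Sfrp4 had 2.71 ± 1.01, 2.45 ± 0.919 and 1.91 ± 0.199 CPM and differences of -0.14 (SE 0.25) and -0.50 (SE 0.25). Dkk1, Dkk4 and Sfrp5 reached at most 1 count in any library. Sfrp1 had 44, 32 and 26 counts in all over the 6 libraries of control, shRNF185.1 and shRNF185.3. Sfrp2 had 11, 34 and 23, and with no filter beyond 1 count it was called higher with shRNF185.1 (edgeR, adjusted p = 0.0168) and not with shRNF185.3 (adjusted p = 0.144).

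The nuclear factor Lef1 rose with both hairpins from a very low level, and its relative Tcf7 changed in opposite directions. Lef1 ranged from 0.497 to 1.12 CPM (median 0.747) in control, from 0.931 to 1.48 CPM (median 1.22) with shRNF185.1 and from 1.15 to 1.66 CPM (median 1.28) for shRNF185.3. All 6 shRNF185.3 libraries and 3 of 6 shRNF185.1 libraries were above every control, on 14 to 43 counts per library; a gene on the opposite strand overlaps 13.8% of its exonic length. Lef1 was 1.61-fold higher with shRNF185.1 (log2 0.68, SE 0.18, adjusted p = 0.00624) and 1.76-fold higher with shRNF185.3 (0.82, SE 0.18, adjusted p = 0.00178). The differences were 0.73, 0.29 and 1.09 in batches 1, 2 and 3 for shRNF185.1, against 0.82, 0.39 and 1.29 for shRNF185.3. Without batch 1 the shRNF185.1 call was lost (0.66, adjusted p = 0.0954), and without batch 3 both were (0.51, adjusted p = 0.101, and 0.61, adjusted p = 0.0606).

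Tcf7, which encodes TCF1, ranged from 21.9 to 26.9 CPM (median 23.8) in control, from 17.2 to 19.4 CPM (median 18.9) with shRNF185.1 and from 24.5 to 28.3 CPM (median 26.6) for shRNF185.3. Every shRNF185.1 library was below every library of the other groups, and 3 of 6 shRNF185.3 libraries were above every control. Tcf7 was 1.28-fold lower with shRNF185.1 (log2 -0.35, SE 0.05, adjusted p = 7.56e-05), a call that held in all 14 alternatives. With shRNF185.3 it was 1.11-fold higher (0.15, SE 0.05, adjusted p = 0.0425), and this call was lost in 8 of 14 alternatives, with 0.09 (adjusted p = 0.427) without batch 3. The hairpins differed by 0.51 (SE 0.05, adjusted p = 3.18e-06), with 0.51, 0.47 and 0.52 in the 3 batches, and that call held in all 14. Axin2, the feedback target most often used as a readout of beta-catenin activity, lay below the filter, with 42 counts over the 6 control libraries, 48 with shRNF185.1 and 22 with shRNF185.3. Single libraries held 3 to 11, 4 to 11 and 1 to 6 counts, which overlapped. No change in Axin2 was called (edgeR with no filter beyond 1 count, adjusted p = 0.612 with shRNF185.1 and 0.343 with shRNF185.3).

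**Figure D3:**
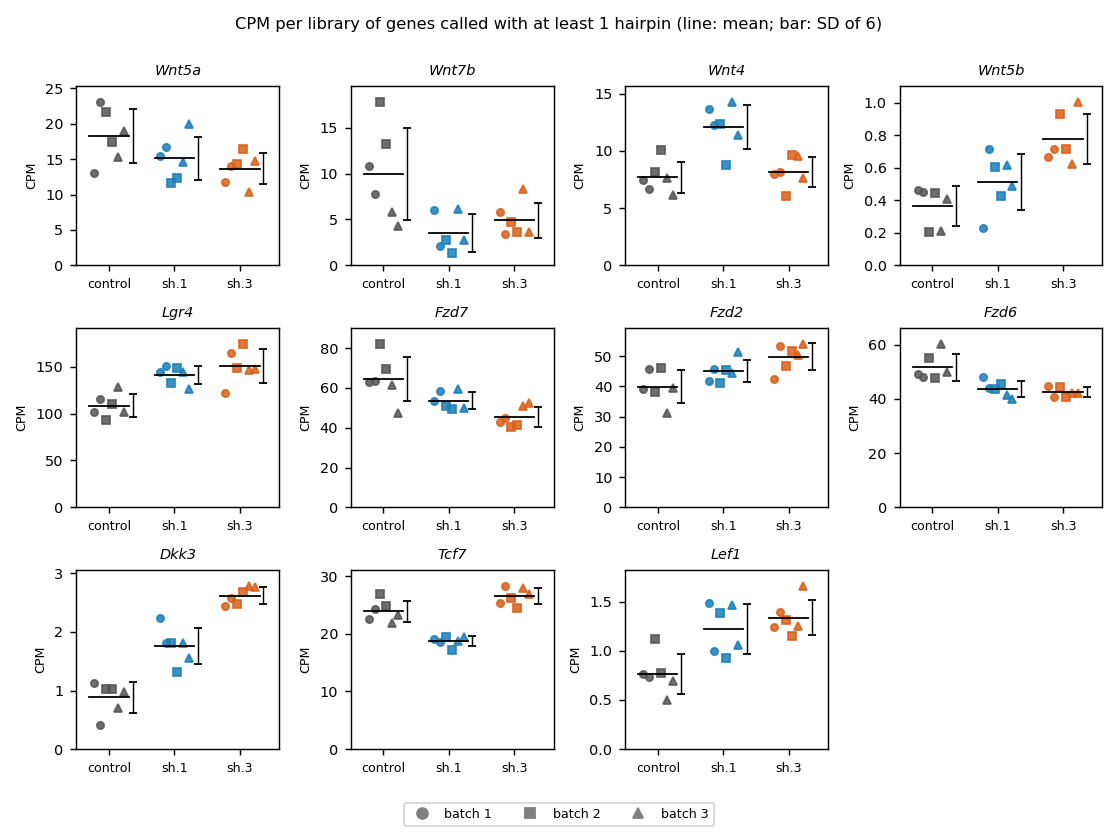
CPM in each of the 18 libraries for the 11 genes called with at least 1 hairpin, with the mean as a line, the SD of 6 as a bar and the batch as the point's shape; sh.1 and sh.3 stand for shRNF185.1 and shRNF185.3. Dkk3 rises in steps from a control median of 1.00 to 1.81 and 2.62 CPM, and the shRNF185.1 libraries of Tcf7, at 17.2 to 19.4 CPM, lie below all others.

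Between the hairpins, 3 of 23 genes (13.04%) were called, beside 14.7% of all genes (7.72% higher, 6.94% lower). Dkk3 and Tcf7 were higher with shRNF185.3 and Wnt4 was lower. Rnf185 itself was not shown to differ between the hairpins (log2 difference -0.00, SE 0.08).

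Several of the genes that were not called on average changed in opposite directions in different batches. A test of whether the change differed between the 3 batches, added after the data had been examined, called 6 of 23 genes (26.1%) with shRNF185.1, beside 14.3% of all genes, and 2 of 23 (8.70%) with shRNF185.3, beside 5.18%. With shRNF185.1 these were Lrp5 (adjusted p = 0.000962), Fzd1 (0.00271), Sfrp4 (0.00292), Fzd8 (0.0178), Fzd9 (0.0298) and Dkk2 (0.0337), and with shRNF185.3 they were Lrp5 (0.00516) and Fzd7 (0.0338), all by edgeR. Lrp5 stood at 276 and 248 CPM in the batch 1 controls, 338 and 399 CPM in those of batch 2, and 177 and 186 CPM in those of batch 3. In the shRNF185.1 libraries batch 2 was instead the lowest, at 329 and 313, 215 and 195, and 379 and 274 CPM in batches 1, 2 and 3. With shRNF185.3 the values were 249.8 and 243, 221 and 278, and 359 and 305 CPM. The Lrp5 difference from control was therefore 0.29, -0.85 and 0.85 in batches 1, 2 and 3 for shRNF185.1, against -0.09, -0.56 and 0.87 for shRNF185.3, while the pooled values were 0.07 and 0.03.

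Fzd1 and Sfrp4 followed the same order in control, highest in batch 2 and lowest in batch 3. Their shRNF185.1 differences were 0.37, -0.93 and 0.63 for Fzd1 and 0.30, -1.51 and 0.72 for Sfrp4 in batches 1, 2 and 3. Fzd9 ran opposite, at -1.88, 1.12 and -1.73, on 1 to 23 counts per library. Of the 23 genes, 8, 15 and 7 were lower than control in batches 1, 2 and 3 for shRNF185.1, and 12, 15 and 7 for shRNF185.3. The median over the 23 was 0.05, -0.20 and 0.32 for shRNF185.1, against -0.07, -0.19 and 0.28 for shRNF185.3, while the median over all genes stayed between -0.02 and 0.00. Of the called genes, 7 of 8 with shRNF185.1 (all but Fzd7) and 8 of 10 with shRNF185.3 (all but Tcf7 and Wnt7b) had the same sign in the 3 batches. The deposited counts carry ComBat-Seq in their label, a batch adjustment for counts, and what part that step has in these patterns was not tested.

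**Figure D4:**
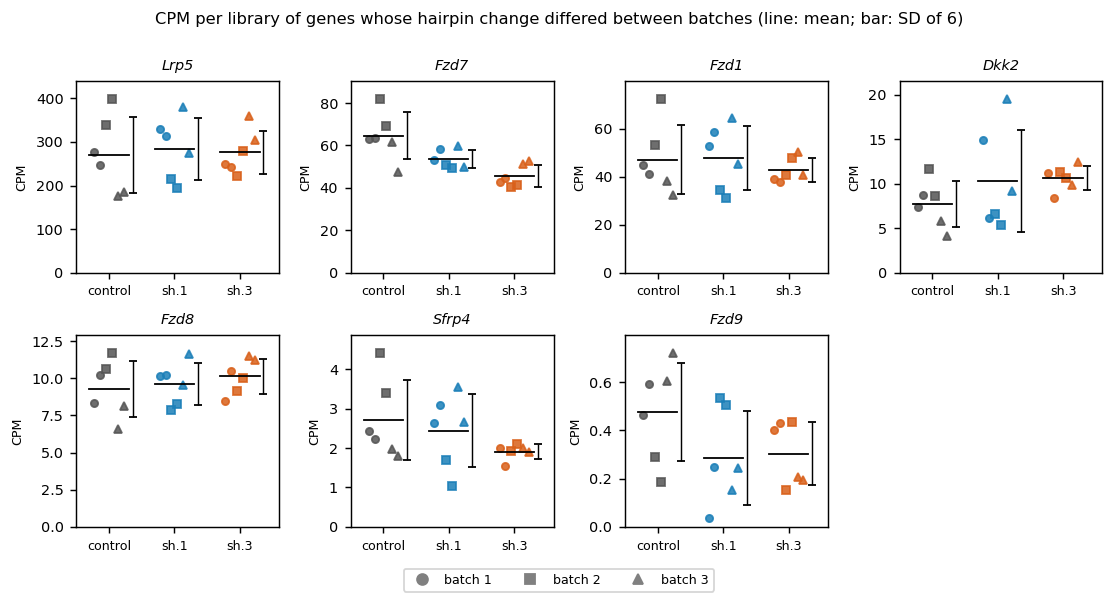
CPM in each library for the 7 genes whose change differed between batches with at least 1 hairpin, with the mean as a line, the SD of 6 as a bar and the batch as the point's shape; sh.1 and sh.3 stand for shRNF185.1 and shRNF185.3. For Lrp5 the batch 2 controls, at 338 and 399 CPM, are the highest controls, while the batch 2 shRNF185.1 libraries, at 215 and 195 CPM, are the lowest of their group.

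Other genes of the pathway were counted in 6 lists. In the list of Wnt secretion and extracellular control, 11 of 17 genes were tested, and 4 rose and 3 fell with shRNF185.1 while 7 rose and 2 fell with shRNF185.3. The median log2 difference of the tested genes was 0.16 and 0.33. Porcn, the acyltransferase that makes Wnt proteins fit for secretion, fell from 10.4 ± 2.92 CPM (SD, n = 6) to 6.13 ± 1.73 with shRNF185.1 (log2 -0.76, SE 0.19, adjusted p = 0.00564) and to 5.31 ± 0.998 with shRNF185.3 (-0.97, SE 0.20, adjusted p = 0.00106). The antagonist Apcdd1 fell from 37.2 ± 3.78 to 22.4 ± 1.38 and 14.7 ± 1.03 CPM, by 0.73 and 1.33 on the log2 scale. Sulf1, a heparan sulfate endosulfatase, rose from 3.43 ± 1.02 to 8.31 ± 2.72 and 8.73 ± 1.46 CPM, by 1.28 and 1.35. Trabd2b, which encodes a protease that cleaves Wnt proteins, rose from 8.57 ± 1.80 to 15.1 ± 2.90 and 14.4 ± 1.08 CPM, by 0.82 and 0.74.

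Of the R-spondins and other surface proteins, 11 of 17 genes were tested, and 3 rose and 1 fell with shRNF185.1 while 4 rose and 1 fell with shRNF185.3 (medians 0.05 and 0.10). Rspo2, an R-spondin and thus a ligand of Lgr4, rose from 0.216 ± 0.154 to 0.803 ± 0.307 and 0.783 ± 0.233 CPM. Its change from control on the log2 scale was 1.89 (SE 0.35, adjusted p = 0.000442) for shRNF185.1, next to 1.87 (SE 0.35, adjusted p = 0.000527) for shRNF185.3. The control mean of Rspo2 lay below the filter level of 0.368 CPM, and whether it passed the filter only through the hairpin libraries was not checked. Adgra2, which encodes a co-receptor for WNT7A and WNT7B, rose from 170.0 ± 25.6 to 298 ± 32.9 and 308 ± 39.3 CPM (0.81 and 0.86, adjusted p = 1.11e-05 and 5.74e-06). Lgr4, Rspo2 and Adgra2 were called higher and Wnt7b lower with both hairpins, though both Wnt7b calls were lost without batch 2. Rnf43, of the same list as Rspo2, was called higher with shRNF185.1 and lower with shRNF185.3. Whether these changes are linked was not tested.

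In the destruction complex and signal transduction list all 23 genes were tested, and 5 rose and 5 fell with shRNF185.1 while 3 rose and 6 fell with shRNF185.3 (medians -0.02 and 0.02). Ctnnb1, which encodes beta-catenin, was called lower with both hairpins by small amounts (log2 -0.16, SE 0.04, adjusted p = 0.00805, and -0.20, SE 0.04, adjusted p = 0.00199). Tnks2, a tankyrase that promotes the breakdown of AXIN proteins, fell from 319 ± 33.5 to 154 ± 13.5 CPM with shRNF185.1 (-1.06, adjusted p = 3.33e-09) and to 279 ± 11.6 CPM with shRNF185.3 (-0.19, adjusted p = 0.0425). Apc2 rose from 4.19 ± 0.829 to 6.06 ± 1.46 and 6.95 ± 0.689 CPM, and the beta-catenin inhibitor Ctnnbip1 fell from 35.8 ± 1.67 to 30.2 ± 1.49 and 31.3 ± 1.66 CPM. Csnk1e rose by 0.19 and 0.24.

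Of 14 nuclear partners 13 were tested, and 1 rose and 2 fell with shRNF185.1 while 2 rose and 2 fell with shRNF185.3 (medians -0.01 and 0.12). The co-repressors moved apart: Tle2 rose from 13.7 ± 3.14 to 21.7 ± 3.96 and 22.2 ± 1.72 CPM, and Tle1 fell from 28.3 ± 3.56 to 22.2 ± 2.82 and 16.9 ± 1.48 CPM. Of 16 planar polarity and noncanonical genes 15 were tested, and 3 rose and 2 fell with shRNF185.1 while 1 rose and 1 fell with shRNF185.3 (medians 0.08 and 0.03). Nfatc1, a transcription factor of the calcium branch, fell from 35.1 ± 1.55 to 27.8 ± 2.03 and 29.7 ± 0.925 CPM. Of 25 commonly used beta-catenin targets 17 were tested, and 4 rose and 3 fell with each hairpin (medians 0.03 and 0.10). Ccn5 rose from 3.97 ± 1.37 to 9.56 ± 2.66 and 8.54 ± 2.07 CPM and Tbx3 from 82.3 ± 2.41 to 89.3 ± 1.60 and 106 ± 2.06 CPM. The cyclin gene Ccnd1 fell from 457 ± 75.6 to 353 ± 39.9 and 364 ± 34.8 CPM. Apcdd1, described above with the first list, also belongs to these targets and fell with both hairpins. Some genes, among them Apcdd1, Notum and Rnf43, are shared between lists, so the lists are not separate counts. The percentages called in the 6 lists with shRNF185.1 were 63.6, 36.4, 43.5, 23.1, 33.3 and 41.2 in the order given, beside 28.9% of all genes, and with shRNF185.3 they were 81.8, 45.5, 39.1, 30.8, 13.3 and 41.2, beside 27.3%.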

How the data were processed

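RNA was measured in 18 libraries in 3 groups of 6. Per the labels' protocols, poly(A) RNA was made into directional libraries and read from a single end. Per the submitters' processing notes, cutadapt 2.3, STAR 2.7.0d and RSEM 1.3.1 were used with mm10, with no role or order given, and the annotation and the strand setting of the counting are not given in the sources used here. The deposited table holds expected counts labelled ComBat-Seq for 47643 genes, of which 0.466% of values were not whole (tolerance 1e-09). Counts were rounded, although whole counts had been assumed when the tests were chosen. The deposited CPM table (15386 genes) is a scaled signal: each value was the count over 1 constant per library, and columns sum to 969986 to 1026394. For genes outside it the same constants were used. Identifiers were matched to symbols for 99.1% of genes.

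The genes and lists were chosen with earlier results of these data known. Genes were filtered with filterByExpr (minimum count 10; 14309 genes kept) and tested with edgeR 4.0.16's quasi-likelihood test (R 4.3.3, TMM, all 18 libraries, no covariate) with Benjamini-Hochberg adjustment. DESeq2 1.42.0, limma 3.58.1 on log2(CPM + 1) and log2(CPM + 0.1), other filters and scalings, an offset for GC and length, batch or replicate terms, summed libraries and leaving out each batch were alternatives. The scripts were tested on simulated data. Genes called in any comparison were named with full values, those not called with ranges, those below the filter with counts, and at most 4 per list: those called alike with both hairpins with the largest smaller change. Ctnnb1 and Rnf43 were named outside that rule after their values were seen. Tle5 was not matched. Values for "expressed" use a median of at least 0.5 CPM.

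Up to 1.24% of the 75-base windows of a tested gene of the set occur in another gene. Genes on the opposite strand overlap 17.8% of the exonic length of Fzd5 and 13.8% of that of Lef1. The chi-square per gene between libraries of a group was 7.64 to 84.4 over 45 pairs, so none was counted as a repeat. Depth was 22027395 to 43379662 counts per library, and a gene with 3 counts stood at 0.0701 to 0.133 CPM.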

Additional observations from a re-analysis of the deposited data

Results flagged for a closer look

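Tcf7 in shRNF185.1 replicate 4, at 17.2 CPM, lay apart from the next library at 18.6 CPM, in 1 of 72 groups of 6 values checked, where chance gives about 3.6. The changes with the hairpins differed from each other for Dkk3 (log2 difference 0.58, shRNF185.3 against shRNF185.1), for Tcf7 (0.51) and for Wnt4 (-0.56), each by edgeR's test of that difference.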

How the results depend on the processing

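Over 14 alternatives, 880 of 945 values of single genes stayed on their side of the threshold, 49 lost the call, 15 gained one and 1 was reversed: without batch 2, Sfrp4 was called higher with shRNF185.1 (0.50, adjusted p = 0.0192; -0.14 in the full data). Calls of the full data kept their sign throughout, whereas values not called, such as those of Fzd1, Lrp5, Fzd8 and Lrp6, changed sign in some alternatives. The number of genes of the set called with shRNF185.1 was 5 with a mean count of at least 50, where 16 of the set were tested, and 5 without batch 1. With shRNF185.3 it was 5 under that stricter filter and 5 without batch 3, and between the hairpins it was 5 with the GC and length offset. Over all genes, 2207 were called with shRNF185.1 without batch 1, 2120 and 2501 with shRNF185.3 without batch 1 and without batch 3, and 753 and 1208 between the hairpins without batch 1 and without batch 2. Leaving out batch 2 raised the shRNF185.1 calls to 5119 over all genes and to 11 in the set, of which 8 were higher (4 of 8 in the full data). Besides Sfrp4, the calls gained in the set by edgeR were Dkk2 (0.94, adjusted p = 0.0313), Lrp5 (0.55, adjusted p = 0.0166) and Fzd1 (0.50, adjusted p = 0.00747), all higher. Fzd9 was called lower (-1.75, adjusted p = 0.00481). The cause of these shifts was not tested. The share of calls that were higher was 36.9% with the GC and length offset (51.8% in the full data) for shRNF185.3, and 42.6% with that offset and 62.4% without batch 1 (52.7%) between the hairpins. With the labelled batch as a covariate the calls were 7, 7 and 2 in the set and 3559, 3260 and 1631 over all genes for shRNF185.1, shRNF185.3 and the hairpins, and the shRNF185.3 calls of Wnt7b, Wnt5a and Tcf7, the shRNF185.1 call of Fzd7 and the call of Dkk3 between the hairpins were lost. Whether the replicate numbers pair the libraries was not settled. Deviations of same-numbered libraries in different groups had a mean r of -0.0144 over 18 pairs. The mean was -0.434 over 18 pairs with another number of the same batch, and 0.111 over 72 pairs from different batches. Although 0 libraries correlated best with their own number, that count also sets it against other batches, so it cannot decide on pairing within a batch. The replicate block gave 7, 10 and 3 calls in the set and 3811, 3578 and 1976 over all genes for shRNF185.1, shRNF185.3 and the hairpins. Depth limits the genes below the filter: Axin2, Wnt7a, Sfrp2 and the others had at most 14 counts per library.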
